A study of Homo sapiens with 23 samples.

Results

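The control cells of the *THUMPD3* knockdown experiments in A549 cells were compared with each other, without depletion of the protein. The libraries were chosen by their labels. They were the 2 siControl libraries and the 6 libraries of the shRNA controls (3 sh1Control and 3 sh4Control) in the first count table, 8 of the 23 libraries of the series. The study asked what the RNA methyltransferase THUMPD3 does in lung cancer cells, by depleting it with an siRNA (siD3 #3) or with an inducible shRNA (shD3 #1 or shD3 #4), each beside its own controls. The question here is how far the controls of the siRNA and of the shRNA experiments already differed.

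A549 is an established human lung carcinoma line, and the labels give the genotype of all 8 libraries as WT. The siControl cells were transfected with a control siRNA and harvested on day 5. The sh1Control and sh4Control cells are the controls of the knockdowns by the tetracycline-inducible lentiviral constructs shD3 #1 and shD3 #4, and they were harvested on day 6. The methods describe puromycin selection of the transduced cells and call the controls untreated. The labels do not say which construct the shRNA controls carry, or whether they received the inducer. The kind of delivery, with whatever selection it involved, and the day of harvest differ together between the groups, and cannot be told apart. All cells were grown in DMEM with serum, and directional libraries were made after removal of ribosomal RNA. The methods state 3 biological replicates a group, and 2 siControl libraries were analysed here.

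A small interfering RNA is a double-stranded RNA brought into the cytoplasm by a transfection reagent, and long or unmodified duplexes are known to trigger interferon genes through RNA sensors. A lentiviral shRNA is transcribed in the nucleus from an integrated construct and processed by the cell's microRNA machinery. A549 cells resemble alveolar type II cells in part, secrete mucins and surfactant-related proteins, and also make proteins that are otherwise known from liver, among them the fibrinogen chains.

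The total count was 18141512 and 13535327 in the siControl libraries, 20234810, 17575988 and 19962085 in sh1Control, and 18096602, 20368566 and 18993800 in sh4Control. Levels are given as cpm, counts scaled to the library total on tested genes after TMM scaling, which are not corrected for transcript length. Genes count as called, higher or lower, at an adjusted p-value under 0.05 in edgeR's quasi-likelihood test with Benjamini-Hochberg adjustment together with a change of at least 1.5-fold. The contrast was siControl minus the mean of sh1Control and sh4Control, so that a positive log2 fold change means higher in siControl. The epithelial markers fixed for A549 were present in every library, with a summed level of 12389 to 13978 cpm in siControl and 13763 to 15884 cpm in the shRNA controls. Markers of blood, endothelial, fibroblast and muscle cells summed to 10.9 to 14.5 cpm and 10.0 to 17.3 cpm in the same order, with 6 of 17 tested and, among others, *CD3E* and *DCN* at 0 in all 8 libraries.

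The siControl libraries stood apart from the shRNA controls. Over the 500 genes of highest variance the first principal component held 81.3% of the variance, and both siControl libraries lay on one side of it (9.82 and above) with all 6 shRNA controls on the other (-1.30 and below). The mean distance was 19.7 units between siControl and sh1Control and 16.5 units between siControl and sh4Control, against 6.67 units between the shRNA control lines. The distance between the siControl libraries themselves was 10.9 units, against 4.56 within sh1Control and 4.63 within sh4Control. The siControl pair was thus both the group that differed and the group with the widest spread.

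**Figure D1:**
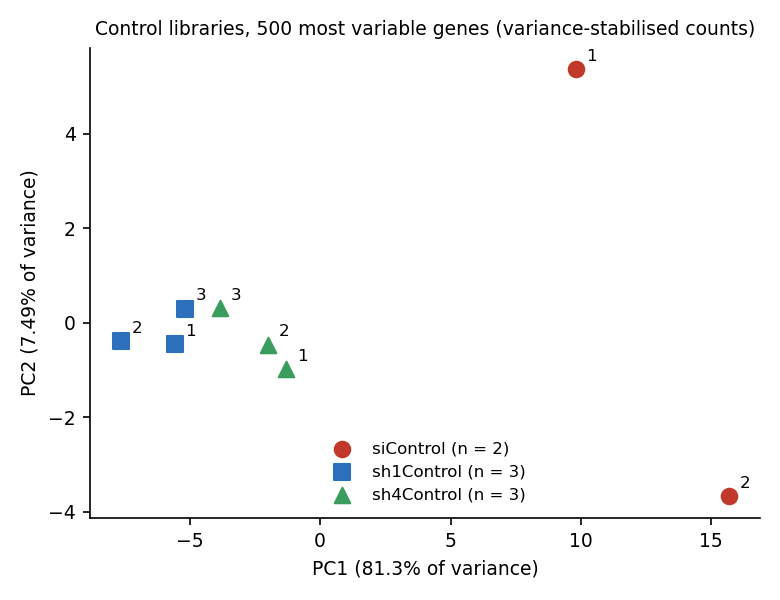
Principal components of the 8 control libraries from variance-stabilised counts of the 500 genes of highest variance, with the share of variance on each axis and the replicate number beside each point. The siControl libraries (circles) lie at 9.82 and above on the first component, and the sh1Control (squares) and sh4Control libraries (triangles) at -1.30 and below.

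Of 17137 genes tested, 633 were called higher in siControl (3.69%) and 816 lower (4.76%), together 8.46%. Most of the changes were small, with 153 of the higher and 337 of the lower genes differing by 2-fold or more. In 596 of the higher and 772 of the lower genes the siControl libraries lay outside the range of all 6 shRNA controls, which over all genes tested held for 38.0% (20.5% upwards and 17.5% downwards). A stricter set held 257 higher genes and 338 lower genes (1.97% of those tested, and 3.47% with the higher ones). These were also called against each shRNA control line alone and moved by at least 1.5-fold in each siControl library. Both siControl libraries also had to lie outside the range of all 6 shRNA controls. The genes named below by size of change were taken from that set, so that their lack of overlap follows from the choice.

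Against sh1Control alone, 871 genes were higher (5.08%) and 1031 lower (6.02%), together 11.1% of genes tested, and against sh4Control alone 426 were higher (2.49%) and 516 lower (3.01%), together 5.50%. These contrasts use the same siControl libraries. Between sh1Control and sh4Control, 5 genes were higher (0.0292%) and 4 lower (0.0233%), together 0.0525%, although 3208 genes had an unadjusted p-value under 0.05 and DESeq2 called none. With voom and sample quality weights that last count was 95 higher and 43 lower.

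*THUMPD3*, the gene depleted in the study, was at 67.7 and 70.9 cpm in siControl, 61.4, 59.1 and 62.1 cpm in sh1Control, and 67.0, 65.8 and 59.2 cpm in sh4Control. Both siControl libraries were above the 6 shRNA controls, by a small margin. The log2 fold change was 0.15 (SE 0.07, adjusted p = 0.0862 in edgeR's quasi-likelihood test), with p = 0.0714 by exact permutation (two-sided), the lower limit for 2 against 6 libraries. *TRMT112*, which encodes the partner protein that THUMPD3 needs for activity, was called higher, at 104 and 103 cpm against 56.4 to 85.8 cpm (0.60, SE 0.08), just past the fold threshold. Its log2 fold change was 0.30 and not called once trends with transcript length and GC content were removed, and it was not called without sh1Control 2 (0.56) or sh4Control 3 (0.55). The other 9 of the 10 tested members of the THUMPD family and TRMT112 partner list were not called, among them the related methyltransferase gene *THUMPD2*, at 15.4 and 20.4 cpm in siControl against 15.2 to 17.5 cpm in the shRNA controls (0.11, SE 0.10).

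Some genes of secreted proteins that A549 cells share with liver were lower in siControl. Of 34 tested members of the list of hepatic-type secreted proteins and endodermal factors, 9 were lower (26.5%, against 4.76% over all genes tested). None was higher and 25 were not called, with a median log2 fold change of -0.22 against -0.01 over all genes. The 3 fibrinogen chains, which assemble into the clotting protein and are encoded side by side on chromosome 4, were among the 9 lower. *FGA* was at 74.0 and 24.7 cpm in siControl, 152, 146 and 151 cpm in sh1Control, and 127, 131 and 160 cpm in sh4Control. *FGB* was at 70.3 and 17.9 cpm in siControl, against 142, 130 and 140 cpm and 107, 128 and 145 cpm. *FGG* was at 29.5 and 7.60 cpm, against 59.7, 52.1 and 58.7 cpm and 43.2, 46.1 and 55.4 cpm. For each chain the groups did not overlap, which the stricter set requires. The level in siControl 2 was lower than in siControl 1 by more than the whole range of the shRNA controls.

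The log2 fold changes of the fibrinogen chains were -1.53 for *FGA* (SE 0.22), -1.56 for *FGB* (SE 0.27) and -1.45 for *FGG* (SE 0.25), with adjusted p-values of 4.78e-05, 2.28e-04 and 2.05e-04 in edgeR's quasi-likelihood test. Without siControl 2 they were -0.96 for *FGA* and -0.91 for *FGB*, so that the size rests on that library and the direction does not.

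Fibrinogen promoters are known to be driven by the liver factor HNF1. The bases upstream of the *FGA* and *FGB* starts are shown to let their letters be compared, from RefSeq on GRCh38.p14, for *FGA* on the minus strand at chr4:154590743-154590992 and for *FGB* on the plus strand at chr4:154562730-154562979. Capitals mark the core letters GTTAAT of the HNF1 site and the CCAAT box, on either strand.
FGA: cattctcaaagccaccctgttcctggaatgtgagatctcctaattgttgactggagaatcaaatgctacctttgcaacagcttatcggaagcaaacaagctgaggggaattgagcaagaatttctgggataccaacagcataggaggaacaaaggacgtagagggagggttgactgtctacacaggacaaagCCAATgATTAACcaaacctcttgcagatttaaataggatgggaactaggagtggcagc
FGB: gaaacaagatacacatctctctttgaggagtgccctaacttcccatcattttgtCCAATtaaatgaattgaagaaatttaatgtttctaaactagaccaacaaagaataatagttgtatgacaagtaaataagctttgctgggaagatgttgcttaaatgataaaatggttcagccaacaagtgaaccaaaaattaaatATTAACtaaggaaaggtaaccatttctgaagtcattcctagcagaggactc

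Both windows hold 1 HNF1 core and 1 CCAAT box. The HNF1 core lies on the strand opposite to the gene in both. Within windows of 300 bases (250 before to 50 after the start), the HNF1 core was found in 6.89% of all promoters, and in 4.10% of the called lower and 6.46% of the called higher genes against 3.80% of the protein-coding genes tested. The CCAAT box was found in 35.7% of all promoters. It was in 39.2% of those of called lower and 36.4% of called higher genes, against 36.5% of the protein-coding genes tested.

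Other members of the list fell with the fibrinogens. *SERPINA1*, which encodes the protease inhibitor alpha-1 antitrypsin, was at 0.224 and 0.287 cpm in siControl against 0.773 to 1.25 cpm in the shRNA controls (-1.97, SE 0.45). The complement gene *C5* was at 111 and 103 cpm against 150 to 207 cpm (-0.72, SE 0.07). *CPS1*, the member with the highest cpm and an enzyme of the urea cycle, was at 691 and 411 cpm against 500 to 653 cpm, and was not called (-0.09, SE 0.12). *VTN*, the adhesive plasma protein vitronectin from the matrix list, was at 10.9 and 4.88 cpm against 19.4 to 27.8 cpm (-1.60, SE 0.19).

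Of 16 tested genes of lung secretions, 7 were lower (43.8%, against 4.76% over all genes tested), none was higher and 9 were not called. The median was -0.60, and DESeq2 called 3 lower. *BPIFB1*, an airway secretory protein, had 0 counts in both siControl libraries and 121 counts over the shRNA controls, where it was at 0.869 to 1.38 cpm. Set against a floor of 3 counts over the siControl group, it was at least 11.2-fold lower. The mucin gene *MUC16* was at 0.561 and 0.143 cpm against 1.27 to 3.31 cpm (-2.40, SE 0.42), and *MUC5B*, a gel-forming mucin of the airway, at 75 and 27.0 cpm against 64.7 to 98.9 cpm (-0.67, SE 0.21), where siControl 1 lay inside the range. Without siControl 2 *MUC5B* was at -0.13 (adjusted p = 0.425 in edgeR), and DESeq2 did not call it (adjusted p = 0.187). *MUC1*, a membrane mucin, was at 0.0561 and 0.359 cpm in siControl against 0.483 to 1.01 cpm in the shRNA controls (-1.91, SE 0.57), and was not called without siControl 1 (-1.01). *SPDEF*, a transcription factor of goblet cells, was at 23.8 and 13.2 cpm against 24.5 to 31.1 cpm (-0.62, SE 0.14), and was not called without siControl 2 (-0.27). *AGR2*, the member with the highest cpm and a chaperone of mucins, was at 440 and 188 cpm against 348 to 422 cpm, so that the siControl libraries lay on both sides of the range (-0.31, SE 0.18, adjusted p = 0.194 in edgeR).

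Within siControl the members of this list were lower in siControl 2 by a median of 1.03 on the log2 scale (siControl 2 minus siControl 1 was -1.03). Without siControl 2 the list had 3 members called lower. Its median is the same with *BPIFB1* at its bound, because that gene is the lowest either way. *NTS*, which encodes the neuropeptide neurotensin, was at 254 and 87.9 cpm in siControl, 466, 462 and 434 cpm in sh1Control, and 378, 409 and 425 cpm in sh4Control (-1.32, SE 0.22). Its groups did not overlap, which the stricter set requires. Again siControl 2 was the lower library, without which the log2 fold change was -0.751.

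The epithelial list was mixed. Of 37 junction and keratin genes tested, 6 were lower (16.2%, against 4.76% over all genes tested) and 2 were higher (5.41%, against 3.69%). The median was -0.14. *EPCAM*, an adhesion molecule of epithelia, was at 5.22 and 2.80 cpm in siControl, 10.5, 10.5 and 8.27 cpm in sh1Control, and 10.5, 11.8 and 10.8 cpm in sh4Control (-1.33, SE 0.17). *ESRP1*, a splicing regulator of epithelial cells, was at 0.393 and 0.359 cpm against 0.797 to 1.35 cpm (-1.41, SE 0.39, not called without either siControl library), and *KRT6A* at 0.281 and 0.0717 cpm against 0.461 to 1.88 cpm (-2.21, SE 0.53). The simple keratin *KRT19* went the other way, at 54.3 and 34.1 cpm in siControl against 24.5, 23.1 and 25.8 cpm in sh1Control and 20, 22 and 20.2 cpm in sh4Control (0.98, SE 0.11). *KRT18*, a keratin of simple epithelia and the member with the highest cpm, was at 2328 and 1786 cpm in siControl against 2165 to 2546 cpm in the shRNA controls and was not called (-0.20, SE 0.08). Without siControl 2, 3 members were called lower.

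The other protein-coding genes with the largest falls were mostly of low level. *IGFBP5*, which binds insulin-like growth factors, was at 0.561 and 0.359 cpm in siControl against 3.13 to 4.46 cpm in the shRNA controls (-2.98, SE 0.29). *LUM*, the matrix proteoglycan lumican, was at 0.337 and 0.287 cpm against 0.972 to 1.95 cpm (-2.35, SE 0.39), and the neural adhesion gene *CHL1* at 0.337 and 0.215 cpm against 0.918 to 1.91 cpm (-2.27, SE 0.44). *LUM* also stood in the list of markers of other cell types, where it was the 1 member called lower and *ACTA2* the 1 called higher (0.66, SE 0.21), which without siControl 2 was at 0.40 and not called. *MAL2*, which acts in apical transport, was at 0.449 and 0 cpm against 1.55 to 3.24 cpm (-3.10, SE 0.45). *ACADL*, a fatty acid dehydrogenase, *CPN1*, a carboxypeptidase of plasma, and *UNC5B*, a netrin receptor, fell by 2.12, 1.86 and 1.82 on the log2 scale, each with siControl under 0.75 cpm.

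*SLITRK5* and *SERPINI1* fell as far at higher counts. *SLITRK5*, a neuronal membrane protein, was at 7.97 and 9.54 cpm in siControl, 31.7, 34.6 and 35.2 cpm in sh1Control, and 24.2, 28.1 and 31.2 cpm in sh4Control (-1.82, SE 0.12, adjusted p = 6.18e-09 in edgeR's quasi-likelihood test). *SERPINI1*, the inhibitor neuroserpin, was at 5.33 and 2.65 cpm against 10.5 to 17 cpm (-1.80, SE 0.18). For *SLITRK5* the siControl libraries differed little between them and all shRNA controls were over 2-fold higher.

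**Figure D2:**
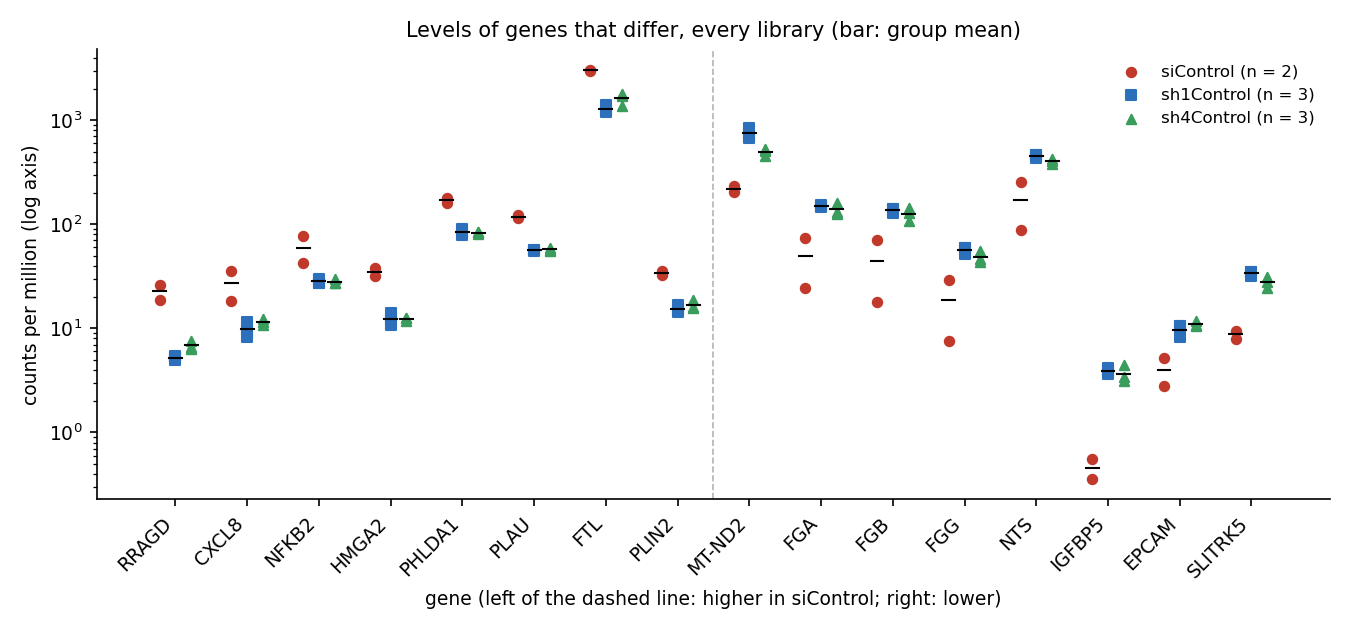
Level of 16 genes in every control library, in cpm on a log axis, with a bar at each group mean. *RRAGD* to *PLIN2* are higher and *MT-ND2* to *SLITRK5* lower in siControl (circles). All are in the stricter set, which requires no overlap with the shRNA controls. The siControl libraries lie farthest apart for *FGA*, *FGB*, *FGG* and *NTS*.

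In the stricter set the largest rise of a protein-coding gene with at least 1 cpm was that of *RRAGD*, which encodes RagD, a GTPase of the lysosome surface through which amino acids activate mTORC1. It was at 26.4 and 18.9 cpm in siControl, 5.31, 5.01 and 5.41 cpm in sh1Control, and 6.37, 6.66 and 7.54 cpm in sh4Control, a rise of 3.80-fold (log2 fold change 1.93, SE 0.12, adjusted p = 4.54e-09 in edgeR's quasi-likelihood test). Of 41 tested lysosome and autophagy genes, 5 were higher (12.2%, against 3.69% over all genes tested) and none was lower, with a median of 0.24. The others were the protease *CTSL* (466 and 375 cpm against 200 to 264 cpm), the autophagy receptor *SQSTM1* (1655 and 1070 cpm against 809 to 890 cpm), the cholesterol carrier *NPC2* (61.6 and 65.8 cpm against 38.1 to 44.1 cpm) and the membrane glycoprotein *GPNMB* (1.46 and 2.65 cpm against 0.756 to 1.44 cpm). For *GPNMB* siControl 1 was barely above the shRNA range, and it was not called without siControl 2 (log2 fold change 0.475), nor *SQSTM1* without siControl 1 (0.35).

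The chemokine *CXCL8* (interleukin-8), which attracts neutrophils and is a classical target of NF-kB and AP-1, was at 36.0 and 18.4 cpm in siControl, 8.20, 9.68 and 11.5 cpm in sh1Control, and 12.4, 10.8 and 11.5 cpm in sh4Control (1.37, SE 0.16, adjusted p = 5.57e-06 in edgeR). The groups did not overlap, which the stricter set requires. Of the siControl libraries siControl 1 was the higher, without which the log2 fold change was 0.789. Its upstream bases on the plus strand at chr4:73740319-73740518 (RefSeq, GRCh38.p14) are shown because both known sites lie in them, with the AP-1 site TGANTCA and the NF-kB site GGANTTTCC in capitals.
CXCL8: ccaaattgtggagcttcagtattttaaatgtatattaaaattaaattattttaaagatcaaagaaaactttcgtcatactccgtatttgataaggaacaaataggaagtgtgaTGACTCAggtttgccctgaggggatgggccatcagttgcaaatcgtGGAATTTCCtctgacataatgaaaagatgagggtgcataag

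Across the called higher genes, the AP-1 letters were found in 7.24% of 387 promoters, against 4.60% of the protein-coding genes tested and 7.76% of all promoters. The NF-kB letters were found in 1.81%, 1.55% and 1.64% in the same order. The interferon-stimulated response element was found in 3.36%, 2.77% and 3.65%, the sterol element TCACNCCAC in 1.03%, 1.03% and 1.15%, the antioxidant element TGACNNNGC in 14%, 15% and 13.6%, the cell cycle element TTTGAA in 11.9%, 9.87% and 15.4%, and the TATA box TATAAA in 13.2%, 5.79% and 12%. Both strands were searched. These shares describe the letters of the windows and not the binding of any factor.

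A list of NF-kB subunits, inhibitors and feedback genes was drawn up after the data had been seen. Of its 22 tested members 6 were higher (27.3%, against 3.69% over all genes tested), none was lower and 16 were not called. The median was 0.31. *NFKB2*, the p100 subunit of the non-canonical pathway, was at 77.2 and 42.5 cpm in siControl, 27.6, 27.4 and 29.8 cpm in sh1Control, and 29.7, 27.4 and 27.2 cpm in sh4Control (1.10, SE 0.13). Its partner *RELB* was at 16 and 8.89 cpm against 5.98 to 6.42 cpm (1.04, SE 0.15), and *BIRC3*, an inhibitor of apoptosis, at 94.2 and 60.4 cpm against 35.0 to 45.4 cpm (1.00, SE 0.11). The remaining members called were *TNFRSF9* (1.32), *NFKBIE* (0.71) and *TNFAIP3* (0.62). Levels in siControl 1 were above those in siControl 2 for all 6, and without siControl 1 the list had 3 members called, with *RELB* at 0.53, *NFKBIE* at 0.51 and *TNFAIP3* at 0.22 no longer among them.

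In the AP-1 and immediate early list 6 of 30 tested were higher and 2 lower. *FOSL1*, an AP-1 subunit, was at 23.8 and 12.7 cpm against 7.26 to 9.23 cpm (1.12, SE 0.16), and was not called without siControl 1 (0.58). *PHLDA1*, a gene induced by growth factor signalling, was at 162 and 180 cpm in siControl, 79.7, 84.0 and 90.4 cpm in sh1Control, and 84.7, 83.9 and 80 cpm in sh4Control (1.03, SE 0.06), with tight groups. *JUN*, *JUNB*, *DUSP1* and *DUSP5* rose by 0.67, 0.64, 0.66 and 0.69, of which *JUN* (0.43) was not called without siControl 1, nor *JUNB* (0.335) and *DUSP1* (0.575) without siControl 2. The orphan receptors *NR4A2* and *NR4A3* were lower, at -1.07 (SE 0.21) and -1.09 (SE 0.26). In the cytokine list *CXCL8* and *IL11* (0.68, SE 0.13) were higher and *IL32* was lower (-0.64, SE 0.20) of 15 tested. The shares of that list were 13.3% higher and 6.67% lower. Without siControl 2 *IL11* was at 0.215 and not called, and *IL32* was not called by DESeq2 or without siControl 1 (-0.48). The member with the highest cpm, *CXCL5*, had siControl libraries at 304 and 151 cpm on either side of the shRNA range of 223 to 251 cpm.

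Among genes of pericellular proteolysis, *PLAU*, the urokinase that activates plasminogen, was at 124 and 114 cpm in siControl, 57.1, 57.1 and 55.4 cpm in sh1Control, and 59.6, 57.3 and 55.8 cpm in sh4Control (1.06, SE 0.06, adjusted p = 2.18e-09 in edgeR). *MMP7*, a metalloprotease of epithelia, was at 98.5 and 79.0 cpm against 41.7 to 52.1 cpm (0.92, SE 0.08). Of 33 tested matrix proteases and inhibitors 5 were higher (15.2%, against 3.69% over all genes tested) and 3 were lower (9.09%, against 4.76%). The lower genes were *MMP28* (-0.90), *MMP14* (-0.83) and *MMP2* (-0.76), all under 5 cpm. DESeq2 and the fit with a replicate block each called 1 lower, and *MMP14* was not called without siControl 2 (-0.53) nor *MMP2* without siControl 1 (-0.094). *MMP2* was also not called with all 17 libraries in 1 fit, with the shRNA controls as 1 group, or with length and GC trends removed. Nor was it called without sh1Control 1, without sh1Control 3 or without any single sh4Control library.

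Matrix genes changed in both directions, with 7 of 57 tested higher (12.3%, against 3.69% over all genes tested) and 10 lower (17.5%, against 4.76%). *COL12A1*, a collagen that lies along other fibrils, was at 42.3 and 38.9 cpm in siControl, 94.8, 91.3 and 86.3 cpm in sh1Control, and 89.2, 87.8 and 102 cpm in sh4Control (-1.18, SE 0.08). *THBS1*, which encodes thrombospondin-1, and the fibrillin *FBN2* fell by 0.79 and 0.70 on the log2 scale. *LAMA1*, a laminin chain, had 1 count over siControl and 57 over the shRNA controls, a ratio of 15.8 (95% exact interval 2.72 to 634). Higher members included *COL13A1* (1.21, SE 0.27, not called without siControl 2) and *TNC*, the matrix glycoprotein tenascin-C, at 8.70 and 7.24 cpm against 2.96 to 3.89 cpm (1.17, SE 0.14).

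Among adhesion genes 5 of 32 tested were lower (15.6%, against 4.76% over all genes tested) and 2 higher (6.25%, against 3.69%). *CEACAM5* was at 28.6 and 8.18 cpm against 39.3 to 71.6 cpm (-1.38, SE 0.24), and the collagen-binding integrin chains *ITGA11* and *ITGA1* fell by 1.17 and 0.92. The laminin-binding chains *ITGA3* and *ITGB4* rose by 0.67 and 0.69, the latter with siControl 2 inside the shRNA range. Without siControl 1 both were not called, at 0.42 and 0.098, and 9 members of the list were lower. Of 36 tested protocadherins, neural cell adhesion genes, 6 were lower (16.7%) and none was higher, with a median of -0.24. The one of them above 5 cpm, *PCDH9*, was at 160 and 155 cpm in siControl, 285, 269 and 261 cpm in sh1Control, and 244, 237 and 274 cpm in sh4Control (-0.73, SE 0.07). Without siControl 2 a single protocadherin was called, and DESeq2 called 2.

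Of 34 tested genes of TGF-beta signalling and mesenchymal state, 5 were higher and 1 was lower, with 3 higher without siControl 2 and 2 once trends with length and GC content were removed. The shares were 14.7% higher and 2.94% lower, against 3.69% and 4.76% over all genes tested. *ZEB2*, a repressor of epithelial genes, was at 7.29 and 12 cpm against 2.94 to 5.41 cpm (1.03, SE 0.19). The BMP antagonist *GREM1* was at 3.14 and 3.23 cpm against 1.30 to 2.06 cpm (1.01, SE 0.20). The intermediate filament gene *VIM* was at 1009 and 1055 cpm against 649 to 714 cpm (0.60, SE 0.06). It was under the fold threshold with the trends removed (0.52) and with at least 10 counts in every library (0.57). The same held for *VIM* without sh1Control 1 (0.583), sh1Control 2 (0.583) or siControl 2 (0.576). *TAGLN*, a smooth muscle actin-binding protein, was lower at 5.89 and 6.02 cpm against 10.3 to 17.1 cpm (-1.19, SE 0.11). Among 31 tested YAP targets *AXL*, *ANKRD1* and *DLC1* were higher (9.68%) and *ARHGEF17* was lower (3.23%). *ANKRD1* was at 0.0083 without siControl 1 (adjusted p = 0.979 in edgeR) and was not called by DESeq2, and *DLC1* without siControl 2 (0.56) and *ARHGEF17* without siControl 1 (-0.50) were not called.

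*HMGA2*, a chromatin protein of embryonic cells that is often re-expressed in tumours, was at 32.2 and 38.1 cpm in siControl, 14.1, 10.7 and 12.3 cpm in sh1Control, and 12.7, 12.6 and 11.8 cpm in sh4Control (1.5, SE 0.09, adjusted p = 4.54e-09 in edgeR's quasi-likelihood test). Other large rises were those of *DCLK1*, a kinase of microtubules (12.1 and 11 cpm against 2.27 to 4.43 cpm, 1.87), *PAPLN*, a secreted matrix protein (13.6 and 10.2 cpm against 2.7 to 3.96 cpm, 1.85), and *PKIB*, an inhibitor of protein kinase A (10.4 and 7.82 cpm against 2.17 to 3.18 cpm, 1.83). *RRAD* (1.70), *ANXA10* (1.63), *CD22* (1.57), *PPP1R1C* (1.40), *A1CF* (1.35) and *AK5* (1.34) completed the 12 largest rises, at levels from 1.36 to 12.9 cpm in siControl. For *CD22* the siControl libraries were at 3.98 and 1.58 cpm, and without siControl 1 it was not called.

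In metabolism, *PLIN2*, which coats lipid droplets, was at 32.6 and 35.7 cpm in siControl, 14.4, 15 and 16.8 cpm in sh1Control, and 18.6, 15.7 and 15.9 cpm in sh4Control (1.09, SE 0.09). *PNPLA2*, the lipase that empties the droplets, was lower at 10.2 and 11.3 cpm against 15.8 to 20.6 cpm (-0.73, SE 0.10). These were the 2 members called of 27 tested, 3.7% in each direction, against 3.69% higher and 4.76% lower over all genes tested. *FTL*, the light chain of the iron store ferritin, was at 3066 and 2964 cpm in siControl, 1241, 1191 and 1400 cpm in sh1Control, and 1804, 1713 and 1372 cpm in sh4Control (1.06, SE 0.08). In the NRF2 list, to which *FTL* belongs, 3 of 39 tested were higher, with *TXN* (0.73) and *SRXN1* (0.72), and *UGT1A6* was lower (-1.11, SE 0.36, not called without either siControl library). Without siControl 2 the list had 9 members higher, and with the length and GC trends removed *TXN* was at 0.36 and not called. Of 41 hypoxia and glycolysis genes *ALDOC* (1.29), *STC1* (0.82) and *BNIP3L* (0.78) were higher, with 5 higher without siControl 1 and *BNIP3L* (0.45) not called without siControl 2. Among 25 cholesterol genes 2 were higher (8.0%), among them the sterol demethylase *CYP51A1* (0.63). The share higher was 7.69% in the NRF2 list and 7.32% in the hypoxia and glycolysis list, against 3.69% over all genes tested.

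The lists of the innate response to double-stranded RNA showed few calls. Of 41 tested interferon-stimulated genes 1 was higher (2.44%, against 3.69% over all genes tested) and none was lower, with a median of 0.12. It was *UBE2L6*, the conjugating enzyme of the ubiquitin-like modifier ISG15, at 13.4 and 19.4 cpm in siControl against 7.43 to 9.77 cpm (0.91, SE 0.12). None of the 23 tested sensors and RNA interference genes was called, with a median of -0.02. *ADAR*, which edits double-stranded RNA and had the highest cpm of them, was at 279 and 280 cpm against 301 to 315 cpm.

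Most stress and cell cycle lists held few calls as well. Of 35 p53 targets 3 were higher (8.57%, against 3.69% over all genes tested), namely *CCNG1* (0.82, SE 0.07), *TRIAP1* (0.69) and *GDF15* (0.64). With the length and GC trends removed 1 was higher, *TRIAP1* being at 0.43 and *GDF15* at 0.47, and *GDF15* was not called without siControl 1 (0.31). None of 29 ATF4 and amino acid stress genes was called. *XBP1*, the transcription factor of the unfolded protein response, was the 1 lower gene of 25 of the endoplasmic reticulum, at 107 and 84.4 cpm against 144 to 184 cpm (-0.79, SE 0.08). *HSPB8* was the 1 higher gene of 22 heat shock genes (0.59). It fell under the fold threshold with the trends removed (0.47) and without sh1Control 2 (0.56). None of 9 tested metallothionein and zinc transporter genes was called. Of 59 M phase genes *MKI67*, the proliferation marker Ki-67, was lower at 333 and 268 cpm in siControl against 471 to 609 cpm (-0.87, SE 0.09), while the other 58 were not called and the median of the list was -0.07. Of 55 replication genes *RPA1* (-0.63) and *E2F8* (-0.59) were lower. The change of *E2F8* was under the fold threshold with voom and sample quality weights (-0.58) and without sh4Control 1 (-0.56).

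**Figure D3:**
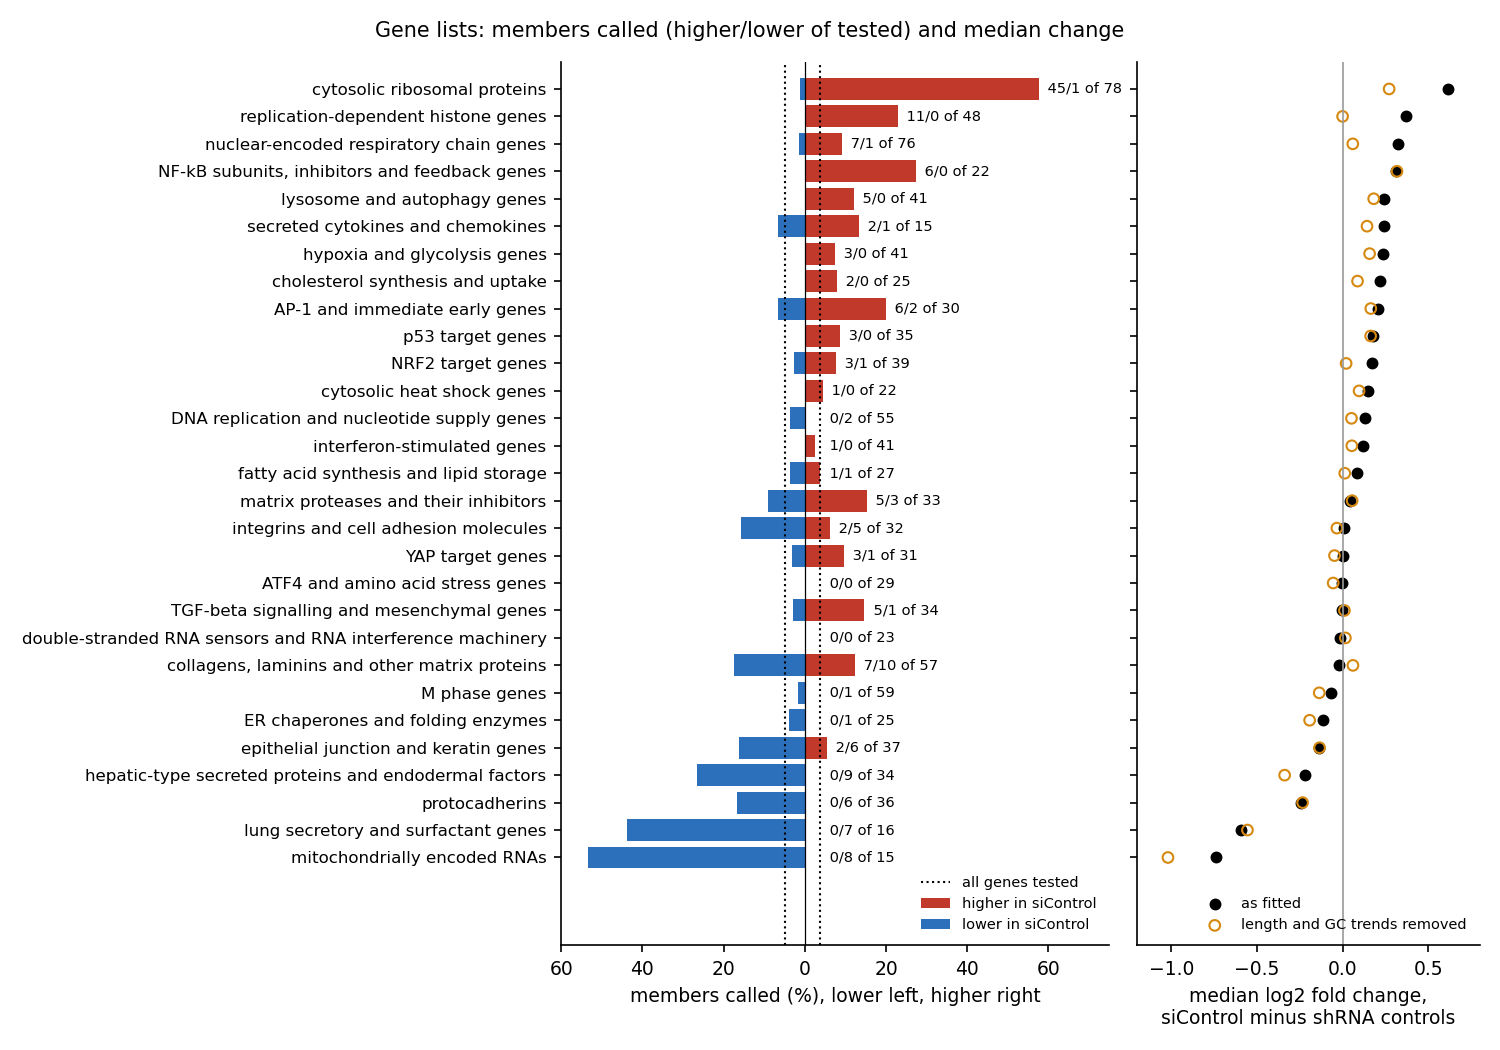
Share of the tested members of each list (marker lists and those of 10 or fewer tested genes left out) called higher (right) or lower (left) in siControl, with the counts beside the bars and the shares over all genes tested dotted (3.69% and 4.76%), and the median log2 fold change of each list as fitted (filled) and after trends with transcript length and GC content were removed (open). The 45 ribosomal protein genes called higher and the 11 histone genes stand at the top. The medians of both move toward 0 when the trends are removed, which follows in part from fitting the trends to the same libraries.

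Among the lists, the one with the highest share of members called was that of the cytosolic ribosome. Of 78 ribosomal protein genes tested 45 were higher (57.7%, against 3.69% over all genes tested) and 1 was lower, with a median log2 fold change of 0.61. They took 2.24% and 2.67% of all counts in siControl against 1.36% to 1.98% in the shRNA controls. *RPL23A* was at 233 and 288 cpm in siControl, 136, 116 and 138 cpm in sh1Control, and 172, 150 and 139 cpm in sh4Control (0.88, SE 0.09). The lower gene was *RPL28*, at 69.1 and 82.5 cpm in siControl against 125, 114 and 113 cpm and 154, 156 and 131 cpm (-0.80, SE 0.08). Against sh1Control 59 were higher and against sh4Control 17, and without siControl 2 the number was 25. Ribosomal protein genes have many processed pseudogenes, so that their counts are uncertain where reads could be split.

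Their transcripts are short, with a median of 827 bases, and the whole transcriptome shifted with length. Among 12965 nuclear protein-coding genes outside the ribosomal proteins, the median log2 fold change was 0.32 for transcripts under 1 kb, 0.14 at 1 to 2 kb, 0.05 at 2 to 4 kb, -0.03 at 4 to 8 kb and -0.12 over 8 kb. Of the 651 shortest 94 were called higher and 10 lower, and of the 1214 longest 18 and 95. Spearman's rho between log2 fold change and length was -0.277 over these genes, which are not independent, and that with GC content was -0.015. Single shRNA control libraries, set against the mean of the other 5, had rho with length from -0.235 (sh4Control 2) to 0.264 (sh1Control 2), with all 3 sh1Control libraries above 0 and 2 of the 3 sh4Control libraries below it.

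When the trends with length and GC content were removed from each library, as an alternative added after the data had been seen, 3 ribosomal protein genes were higher and 2 lower with a median of 0.27. The trends were fitted to these same libraries with the list genes included. Their removal thus takes short transcripts toward 0 by design, the median under 1 kb going from 0.32 to -0.000457. Replication-dependent histone genes, whose short mRNAs have no poly(A) tail, had 11 of 48 higher (22.9%) and none lower (median 0.37). With the trends removed 2 of these histone genes were higher (median -0.00061). They were also called in 23 cases against sh1Control and in 1 against sh4Control. The number higher was 18 without siControl 1, 4 without siControl 2 or sh4Control 3, 5 without sh1Control 2, and 7 with a replicate block. In the added list of 76 nuclear genes of the respiratory chain, 7 were higher and *SDHC* was lower (-0.85, SE 0.14), and 0 were higher with the trends removed and 11 without siControl 1. The falls of the hepatic list (10 lower), of the lung secretory list (8 lower) and the rises of the NF-kB list (6 higher) were not fewer under the same change.

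**Figure D4:**
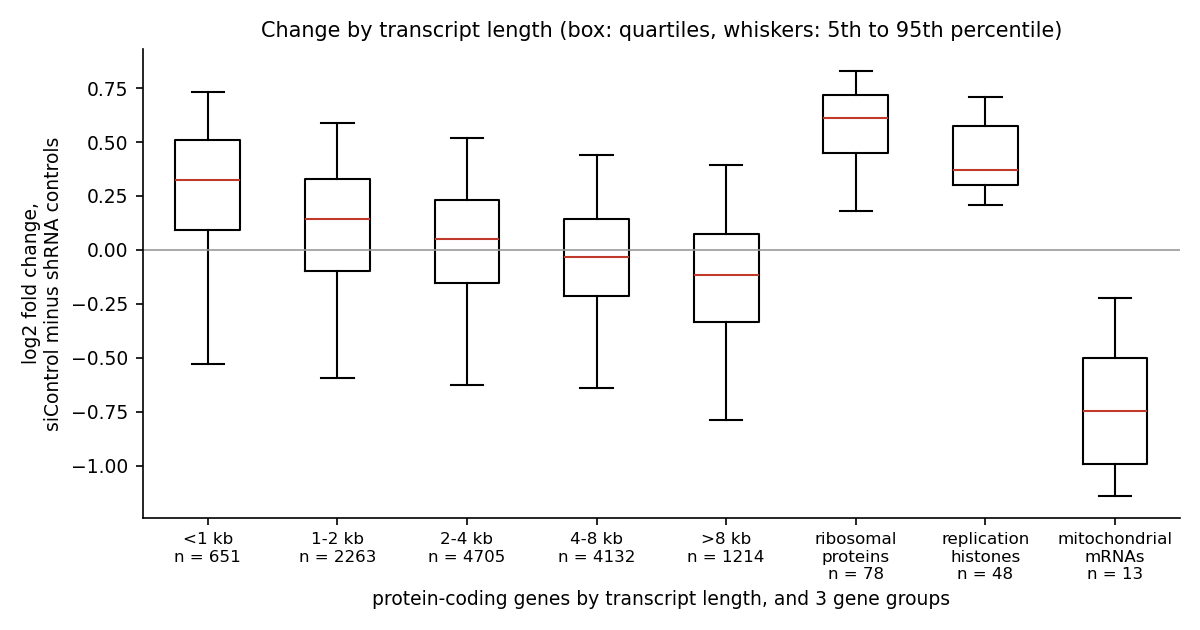
Log2 fold change (siControl minus shRNA controls) of nuclear protein-coding genes by transcript length without ribosomal proteins, and of ribosomal protein, replication-dependent histone and mitochondrial messenger genes, with boxes at the quartiles and whiskers at the 5th and 95th percentiles. The medians go from 0.32 under 1 kb to -0.12 over 8 kb, and the histone genes are also part of the length classes.

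Transcripts of the mitochondrial genome were lower. Of 15 tested, 8 were lower (53.3%, against 4.76% over all genes tested) and none was higher. All 15 had negative log2 fold changes (median -0.74), with 13 lower once the trends were removed. *MT-ND2*, a subunit of complex I, was at 232 and 204 cpm in siControl, 836, 728 and 679 cpm in sh1Control, and 454, 528 and 507 cpm in sh4Control (-1.48, SE 0.09, adjusted p = 4.54e-09 in edgeR's quasi-likelihood test). *MT-ND1* was at 616 and 516 cpm against 953 to 1593 cpm (-1.14, SE 0.09), and *MT-ND4* at 1211 and 1075 cpm against 1837 to 3008 cpm (-1.04, SE 0.10). In each of these genes sh4Control lay between siControl and sh1Control. *MT-CO1* and *MT-CO3*, named after their values were seen, had log2 fold changes of -0.50 and -0.22 and were not called. The ribosomal RNAs did not fall alike, with *MT-RNR1* at 15940 and 13126 cpm against 12662 to 17361 cpm (-0.01, SE 0.09) and *MT-RNR2* at 244976 and 212378 cpm against 239471 to 303830 cpm (-0.24, SE 0.09).

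As a share of all counts, mitochondrial messengers took 1.69% and 1.61% in siControl, 2.85%, 2.74% and 2.63% in sh1Control, and 1.99%, 2.33% and 2.33% in sh4Control. Exact permutation (two-sided) gave p = 0.0714, again the lower limit, and 0.0893 after Benjamini-Hochberg adjustment over 15 library values. In bulk RNA, fewer mitochondria and less RNA in each cannot be told apart. On the other chromosomes the median log2 fold change lay between -0.04 (chromosome X) and 0.09 (chromosome 9).

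Small nuclear and nucleolar RNAs gave the largest rises in the stricter set outside protein-coding genes. *RNU4-1*, a gene of the U4 RNA of the spliceosome on the minus strand at chr12:120293097-120293237, was at 75.5 and 152 cpm in siControl, 17.9, 6.97 and 12.1 cpm in sh1Control, and 8.53, 16.6 and 23.3 cpm in sh4Control (3.00, SE 0.24, adjusted p = 1.09e-07 in edgeR's quasi-likelihood test). *RNU4-2*, the other U4 gene, at chr12:120291763-120291903 on the same strand and named after its values were seen, was at 110 and 202 cpm against 10.0 to 30.5 cpm (2.87, SE 0.22). The groups did not overlap for either, which the stricter set requires, and siControl 2 was the higher library for both. The copies of 141 bases differ at 4 positions, shown in capitals from GENCODE 44, so that reads can be split between them and each level is uncertain.
RNU4-1: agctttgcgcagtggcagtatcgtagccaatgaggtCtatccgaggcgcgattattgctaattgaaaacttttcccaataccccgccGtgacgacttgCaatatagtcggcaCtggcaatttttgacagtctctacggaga
RNU4-2: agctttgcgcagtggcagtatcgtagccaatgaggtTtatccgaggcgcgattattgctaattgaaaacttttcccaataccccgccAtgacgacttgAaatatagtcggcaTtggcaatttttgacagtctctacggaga

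*RNVU1-31*, a variant U1 gene with near copies, was at 30.2 and 58.7 cpm against 4.10 to 7.94 cpm (2.90, SE 0.20), and the nucleolar *SNORA49* at 1.91 and 2.01 cpm against 0.162 to 0.425 cpm (2.92, SE 0.32). Over the classes, 9 of 44 snRNA genes were higher and 1 lower (22.7% called, although the median of the class was -0.125), 19 of 79 snoRNA genes were higher and 2 lower (26.6%), and 13 of 56 genes of the miscellaneous class, which holds 7SL, 7SK and Y RNAs, were higher and 5 lower (32.1%), against 7.71% of protein-coding genes. As a share of counts, the miscellaneous class took 2.02% and 2.64% in siControl and 0.587% to 1.49% in the shRNA controls. Long non-coding RNA genes leaned the other way, with 77 of 2843 higher and 230 lower (10.8%) and a median of -0.21, and the largest falls outside protein-coding genes were those of the pseudogene *NUS1P1* (-1.92), the antisense gene *DHDDS-AS1* (-1.88) and *SPATA41* (-1.80), all under 2 cpm. *NUS1P1* shares sequence with its parent gene, which makes its level uncertain, and was not called without siControl 2.

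The remaining 9 libraries of the first table had the same delivery label (siRNA or shRNA) and day as these controls but were of cells with a *THUMPD3* knockdown, and none of them entered the comparison above. The 3 siD3 #3 libraries were therefore set beside the 6 shD3 libraries, on cpm scaled over all 17 libraries. The depth of knockdown differed, with *THUMPD3* at 10.7 to 12.8 cpm in siD3 #3 and 19.1 to 31.8 cpm in the shD3 libraries. All 59 tested M phase genes and 49 of 55 replication genes were lower in every siD3 #3 library than in every shD3 library. Delivery and the effect of each knockdown thus cannot be told apart in these libraries. All siD3 #3 libraries lay above all shD3 libraries for 34.9% of the 633 genes called higher here and for 14.3% of all genes tested, and below them for 25.1% of the 816 called lower and for 14.9% of all genes. For *RRAGD* they were at 32.4 to 35.5 cpm against 4.61 to 9.88 cpm, for *PAPLN* at 16.9 to 26.1 cpm against 2.22 to 5.62 cpm, and for *PLIN2* at 41.2 to 54.1 cpm against 11.2 to 14.2 cpm. *FTL*, *AK5*, *BIRC3* and *UBE2L6* were separated in the same way. *IGFBP5* was at 0.458 to 2.11 cpm against 13.6 to 31.2 cpm, *NTS* at 32.1 to 171 cpm against 512 to 629 cpm, and *MT-ND2* at 283 to 371 cpm against 510 to 746 cpm, and *SLITRK5*, *SERPINI1*, *EPCAM*, *COL12A1* and *MT-ND1* were also lower with no overlap.

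Other genes did not stay apart in the knockdown libraries. *FGA* was at 18.3 to 124 cpm in siD3 #3 and 27.5 to 276 cpm in the shD3 libraries, *HMGA2* at 12.7 to 52.7 cpm and 8.22 to 18.2 cpm, and *RNU4-1* at 59.0 to 73.9 cpm and 11 to 278 cpm. In the separately normalised table of deeper libraries, sh1Control was at 7.46 to 9.70 cpm for *RRAGD*, and at 20 to 30.5 cpm for *FGA* and 10.5 to 14.7 cpm for *NTS*, which in the first sh1Control libraries were at 146 to 152 cpm and 434 to 466 cpm. For *PAPLN* (12.1 to 15.6 cpm), *EPCAM* (2.8 to 3.32 cpm) and *SERPINI1* (2.25 to 2.72 cpm) the deeper sh1Control libraries were at or past the siControl level. The same held for *CXCL8* (36.7 to 46.7 cpm), *PHLDA1* (214 to 224 cpm), *PLAU* (156 to 184 cpm) and *TNC* (9.48 to 12.4 cpm). It also held for *FOSL1* (52.6 to 63.2 cpm) and *LUM* (0.0167 to 0.254 cpm), among others. There *FGB* was at 3.23 to 6.04 cpm, under both siControl libraries. The levels of *SLITRK5* (19.4 to 19.7 cpm) and *COL12A1* (61.4 to 64.5 cpm) stayed above siControl. Those of *HMGA2* (13.3 to 15 cpm), *FTL* (1819 to 1968 cpm) and *PLIN2* (25.3 to 27.7 cpm) stayed below it. The tables were normalised separately, and no test was made between them.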

How the data were processed

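RNA-sequencing counts of the 8 control libraries of the first table were analysed. Per the labels and methods, total RNA was depleted of ribosomal RNA, directional libraries were made with the NEXTFLEX kit, and the authors trimmed reads with Trimmomatic 0.40 and aligned and counted them with STAR 2.7.10a on GRCh38.p14; both tools are in the submitters' processing notes. The deposited values are raw counts of reads per gene (61806 genes, Ensembl identifiers), with no normalisation. The strand setting of the counting is not given in the sources used here, so genes that overlap or are antisense are uncertain. Gene classes, positions and lengths came from GENCODE 44, which held 61757 of the genes.

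Counts were filtered with filterByExpr, scaled by TMM and fitted in edgeR 4.0.16 (R 4.3.3) with 3 groups, and siControl was tested against the mean of both shRNA controls and against each. Standard errors are those of log2 fold changes. Principal components used DESeq2 1.42.0. Single values were compared by exact permutation over the 28 assignments of 2 among 8 libraries, with scipy 1.17.1. No source says that replicates came from separate cultures beyond the label of biological replicates, and p-values measure the spread between these libraries. Intervals and floors cover counting error only, at the 95% level.

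Named genes were *THUMPD3* and *THUMPD2*, the 12 protein-coding genes with the largest change in each direction in the strict set with at least 1 cpm in the higher group, the 6 with at least 100 cpm on average, the 3 of other classes, up to 4 called members of each list and its member of highest cpm, and the mitochondrial ribosomal RNAs. Some other called list members were chosen with their values in view, and a few genes that the rule names are not reported here. The comparison, its 31 lists and the rule for named genes were chosen with earlier results of these data known, and 2 lists and 1 alternative came later, with the data in view. The alternatives were DESeq2, its size factors, other filters, each library left out, a replicate block, glmTreat, a fold of 2, the shRNA controls as 1 group, all 17 libraries in 1 fit, voom with sample weights, and removal of length and GC trends (lowess in each library, separately for protein-coding and other genes). The fit was tested on simulated data.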

Additional observations from a re-analysis of the deposited data

Results flagged for a closer look

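Each gene named in the text was examined over the 6 shRNA controls for a single library far from the others (by Dixon's ratio), which chance gives in about 1 of 20 groups. Of 142 values tested 5 passed. *SNORA49* was at 0.425 cpm in sh4Control 3, *MMP28* at 4.69 cpm in sh1Control 1, *EPCAM* at 8.27 cpm and *RPA1* at 41.2 cpm in sh1Control 3, and *SPDEF* at 24.5 cpm in sh1Control 2. For *MT-ND2* the shRNA control lines themselves differed, with sh1Control above sh4Control by 0.59 on the log2 scale (adjusted p = 0.013 in edgeR's quasi-likelihood test), so that its fall in siControl was larger against sh1Control.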

How the results depend on the processing

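A fold of 2 left 153 genes higher and 337 lower in siControl (179 and 464 against sh1Control, 125 and 224 against sh4Control), and glmTreat, which tests against the fold threshold itself, 72 and 58 (117 and 87, 37 and 35). DESeq2 called 538 lower (674 and 322 against the single lines) and voom with sample weights 490 lower, and with the length and GC trends removed 3.2% of genes tested were higher against sh1Control, where 5.08% had been. Between the shRNA lines DESeq2 called 0 and 0, and voom 95 and 43. Leaving out 1 library gave 541 to 798 higher and 670 to 859 lower, and 0 to 46 and 0 to 31 between the shRNA lines. The hepatic list had 3 lower under glmTreat and 5 at a fold of 2. The lung secretory list had 3 under DESeq2, 4 with at least 10 counts in every library, 2 under glmTreat, 4 at a fold of 2, and 3 to 9 with a library left out. The mitochondrial list had 5 lower under glmTreat, 3 at a fold of 2 and 13 with trends removed. The ribosomal protein list had 4, 3 and 3 higher in the same order, and 25 to 54 with a library left out, the lowest without siControl 2. The first component held 57.05% over all genes and 55.43% on log2 cpm.

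Single genes reversed only where siControl 2 or a shRNA library was left out or the trends were removed. *THUMPD2* ranged from -0.0947 to 0.306 and was -0.0261 with the trends removed. *CXCL5* ranged from -0.641 to 0.378, *CPS1* from -0.515 to 0.24 and *AGR2* from -1.06 to 0.178, each of these positive, and *THUMPD2* negative, without siControl 2. *MT-RNR1* ranged from -0.157 to 0.127, and was 0.0933 with the trends removed. The cause was not tested. Of 116 genes named and called, 108 were called by DESeq2, 51 by glmTreat, 100 with the trends removed, 111 with the block, 98 without siControl 1 and 100 without siControl 2, none in the other direction. Equal replicate numbers did not pair the libraries (7 same-number correlations from -0.0461 to 0.00117), and with a replicate block 566 genes were higher and 630 lower.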
